A study of Danio rerio with 32 samples.

Results

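The 4 vehicle control pools of a study of retene in zebrafish were described here on their own, as a reference picture of the transcriptome at 48 hours post fertilization (hpf). They were chosen by their label alone, 4 of 32 pools, and no value of the other 28 pools, which had 7 concentrations of retene, is given. Each control pool held 9 whole larvae of the Tropical 5D strain, dechorionated, kept from 6 hpf in medium with the solvent dimethyl sulfoxide (DMSO) and collected at 48 hpf. Every group of the study had the DMSO, and the study's methods state that only fish of normal morphology were taken, so the pools stand for solvent-exposed, normally formed larvae and not for untreated ones. The labels number the pools as replicates and do not say whether they came from separate clutches, so the spread between them may be partly technical, and differences between single larvae cannot be seen.

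At 48 hpf a zebrafish has finished the main steps of organ formation and is at the age of hatching. Its trunk muscle already contracts and its heart drives a closed circulation, while the gut and the exocrine pancreas do not yet digest food and the animal lives on its yolk. The yolk syncytial layer breaks the stored lipoprotein down and exports it to the body as new lipoprotein particles.

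The deposited log2 values were turned back into reads, and a normalized count below is a gene's number of reads divided by the size factor of its pool, which corrects for depth. Values given in fours are those of pools 1, 2, 3 and 4. The pools held 8126602, 8045230, 8656870 and 8184726 reads on genes, with size factors between 1.01 and 1.06. The table lists 22686 genes, of which 21725 had a read in all 4 pools and 17918 had a mean normalized count of at least 10. A count was not divided by transcript length, because no transcript lengths were used here, so an order of genes by reads is not an order by number of molecules. A count of 0 in a pool allows up to 3 reads, for counting error only.

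Pool 2 stood apart from the others, and CVs and counts of spread are therefore given with and without it. Across the 17918 genes, log2 counts correlated with r of 0.986 in each pair of pools 1, 3 and 4, and with r between 0.964 and 0.970 where pool 2 was one of the pair. These correlations are over genes of the same animals and describe likeness only. The median absolute log2 difference was 0.16 to 0.17 between pools 1, 3 and 4, and 0.23 to 0.25 between pool 2 and each of them. In a principal component analysis, the first component held 69.1% of the variance and set pool 2 against the rest. Pool 2 was the highest pool for 6134 genes and the lowest for 5876, together 67.0% of the genes. It was at least 2 times above all 3 other pools in 621 genes, against 3, 10 and 2 genes for pools 1, 3 and 4. The genes were chosen by the mean of all 4 pools, so some low genes can enter only through a high value in pool 2. Without pool 2, 17749 genes had a mean of at least 10. The depth of pool 2 was the lowest of the 4 by a narrow margin, and no label sets it apart. What made it differ was not tested.

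A small part of the genes took most of the reads. The 10 genes with the most reads in each pool took 12.6, 11.9, 12.7 and 12.5% of the reads on genes, the top 100 took 34.6, 32.4, 34.7 and 34.5%, and the top 1000 took 62.6, 59.7, 62.8 and 62.7%. By mean share, 416 genes were enough for the first 50% of all reads. At the other end, 4768 genes had a mean under 10 and together held 0.27% of the reads. Pools 1, 3 and 4 lay within 0.21 percentage points of each other in all 3 shares, while pool 2 lay 2.87 percentage points below the lowest of them in the top 1000.

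The gene with the most reads was actc1b, an alpha-actin of skeletal muscle, with 212403, 188235, 215022 and 196276 normalized counts, or 2.54% of all reads. Next came COX1, the mitochondrial gene of the catalytic subunit of cytochrome c oxidase, with 152277, 135104, 151969.7 and 158698. Then followed atp2a1, the calcium pump of fast muscle, with 101013, 96403, 108015 and 106955. Muscle and mitochondria filled most of the top of the order. Of the 30 genes with the most reads, 10 were encoded by the mitochondrial genome and 8 belonged to the list of fast skeletal muscle genes, and the 30 together took 22.6, 21.3, 22.6 and 22.6% of the reads.

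Most of the remaining genes among the 30 came from skin, translation, yolk lipid export and general cell functions. krt4, a keratin of the outer skin layer (the periderm), had 93234, 77585, 93037 and 95587. eef1a1l1 and eef2b, which encode the elongation factors that carry transfer RNA to the ribosome and move it along the message, had means of 84939 ± 7627 and 51270.0 ± 5713 (SD, n = 4). actb2, a cytoplasmic actin, averaged 66942 ± 5195. The apolipoproteins apoa1b and apobb.1, the protein parts of exported lipid particles, averaged 37069 ± 4996 and 23546 ± 1514. A further muscle gene, the skeletal myosin light chain mylz3, had 74499, 67768, 79915 and 75313. It is not in the fast muscle list, so the share of that list leaves it out. Single genes of other functions were the translationally controlled tumor protein tpt1, the chromatin protein hmga1a, the mitochondrial ATP carrier slc25a5, the chaperone hsp90ab1 and the type I collagen chain col1a1b, each with a mean between 25390.4 and 35765. In 27 of the 30 genes pool 2 had the lowest normalized count, against 32.8% of all genes with a mean of at least 10. Of 5 equal groups of all such genes ordered by reads, pool 2 was lowest for 54.5% in the group with the most. The total of normalized counts was also lowest in pool 2, so a gene with equal shares of reads in all pools is lowest there. The plot of the 30 genes by pool shows pool 2 at the left in most rows.

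**Figure D1:**
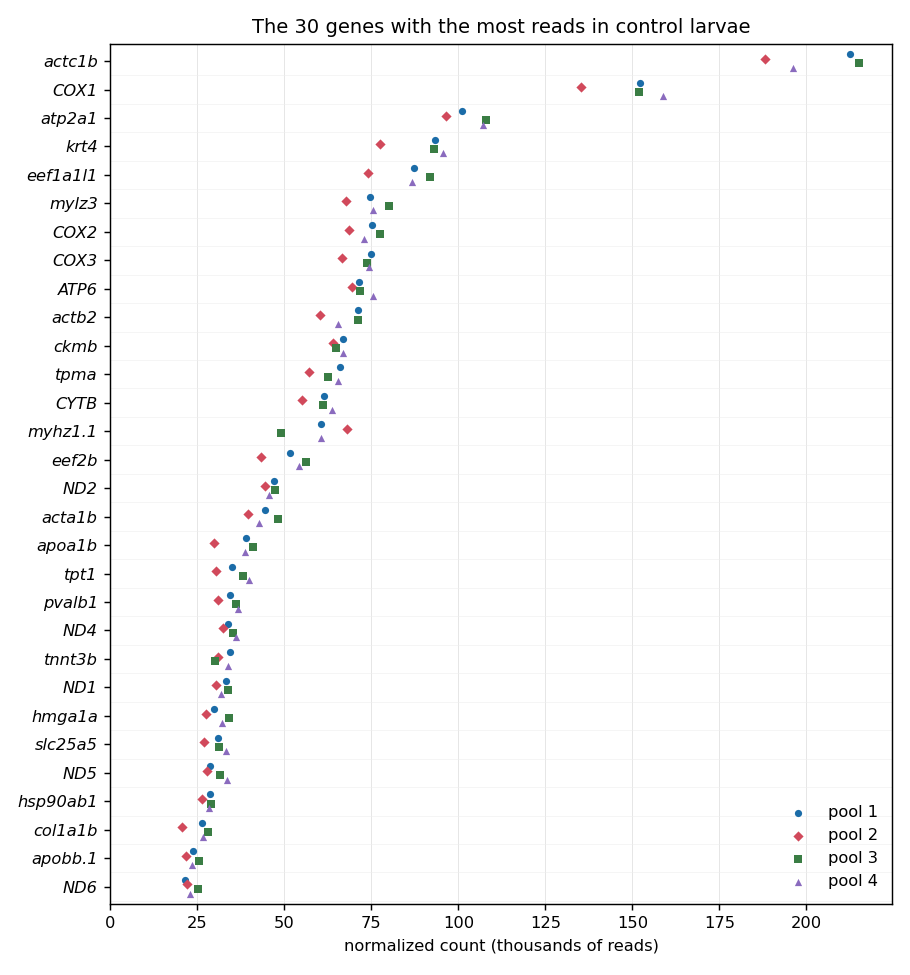
Normalized counts (axis in units of 1000 reads) of the 30 genes with the most reads, 1 row per gene and 1 symbol per control pool. actc1b and COX1 lie above all other genes in every pool, and pool 2 (red diamonds) has the lowest value in 27 of the 30 genes.

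Gene lists for tissues and cell functions were then summed as a share of the reads on genes in each pool. A share depends both on how many cells of a tissue the larva has and on how much messenger RNA (mRNA) each cell holds, and whole-larva pools cannot tell these apart. In the plot of list shares, fast muscle stands at the top with a mean of 9.75% and egg genes at the bottom, and the 4 pools of a list lie close together beside the distance between lists.

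**Figure D2:**
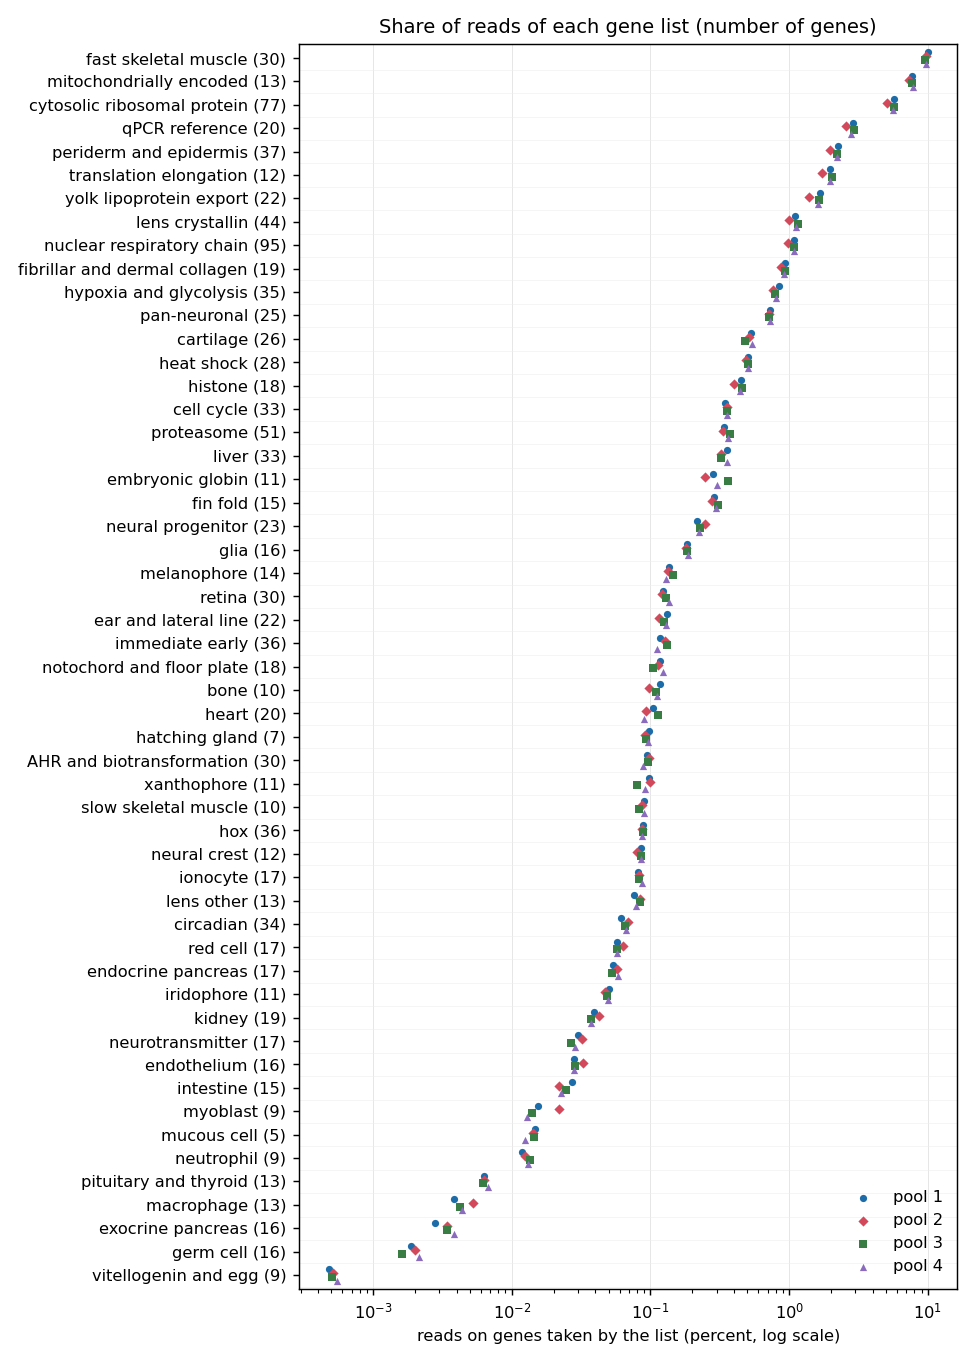
Percent of the reads on genes (log scale) taken by each of 53 gene lists, with the number of listed genes found in the table in parentheses and 1 symbol per control pool. Fast muscle and mitochondrially encoded genes lead with 9.57% to 9.94% and 7.36% to 7.79%, and the egg genes are last at about 0.0005%.

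Fast skeletal muscle, which makes up the bulk of the swimming muscle, held the largest share of all lists, 9.94, 9.78, 9.57 and 9.71% in 30 genes. Thin filament genes followed actc1b in order of reads: tpma (tropomyosin) with 65899.5, 57149, 62537 and 65287, the second actin acta1b with 44515, 39538, 48055 and 42746 and tnnt3b (troponin T) with 34485, 30933, 29975 and 33828. ckmb, the creatine kinase that regenerates ATP in contracting muscle, had 66770.0, 63830.3, 64821 and 66705 and a CV of 2.21%, and 1.67% without pool 2. The fast myosin heavy chain genes went a different way between pools. The 4 of the list (myhz1.1, myhz1.2, myhz1.3 and myhz2) summed to 111778, 124892, 92679.6 and 113271, and each was highest in pool 2 and lowest in pool 3. The grouping of these 4 was made after their values were seen. They are near-identical copies, whose counts are uncertain because reads that match several places are not counted. Of the 28 muscle genes with a mean of at least 10, in contrast, 19 had their lowest normalized count in pool 2, against 32.8% of all genes. Normalized counts do not sum to the same total in each pool. By share of reads the list was lowest in pool 3, with 9.57%, and not in pool 2, with 9.78%. Most muscle genes of the list were highly read, 26 of 30 with a mean of at least 1000. When all genes were put in 5 equal groups by reads, pool 2 was lowest for 54.5% of the group with the most. A pair of listed genes was close to 0: ckma, the other muscle creatine kinase, with 6.90, 0, 2.82 and 7.89, and the parvalbumin pvalb2, a calcium buffer, with 1.97, 0, 3.76 and 2.96, beside 34343, 30963, 36120.5 and 36681 for pvalb1.

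Slow muscle, the thin superficial layer that forms first, held 0.0901, 0.0875, 0.0827 and 0.0902%. myl10, a myosin light chain, led with 2801, 2518, 3037 and 2686, followed by tnnc1b (troponin C) with 1189.9, 1026, 869 and 1199. The slow myosin heavy chains had fewer reads: smyhc2 had 393, 413, 308 and 417 and smyhc1 only 14.8, 55.3, 13.2 and 10.9, the highest value being that of pool 2. These are also close copies of each other. The list of myoblast genes, for muscle precursors, held 0.0155, 0.0220, 0.0140 and 0.0129%, and 7 of its 9 genes were highest in pool 2, against 34.2% of all genes with a mean of at least 10, among them mef2d with 482, 686, 376 and 315. The determination factor myod1 had 109, 173, 134 and 134 and the differentiation factor myog 145, 125, 119 and 135.

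Heart genes took 0.104, 0.0930, 0.113 and 0.0894%. Most of this was actc1a, a cardiac and muscle actin, with 6411, 5181, 7574 and 5313. Genes closer to heart muscle alone were of middle level: myl7, the light chain of both chambers, had 272, 246, 263 and 279, nppa, a natriuretic peptide of the chamber wall, had 227, 192, 217 and 216, and the cardiac factor hand2, which other tissues also use, had 299, 253, 278 and 276. The early heart factors nkx2.5 and gata4 were low, with 10.8, 13.3, 10.3 and 10.9 and 12.8, 22.9, 10.3 and 6.91.

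Embryonic globins, the hemoglobin chains of the first red cells, took 0.281, 0.245, 0.365 and 0.304%. The alpha chain gene hbae3 led with 13400.3, 10837, 17126 and 13981, and the beta chain gene hbbe1.1 had 2946, 2749, 5559.9 and 4265. The globin share differed between pools with a CV of 16.8%, and 13.7% without pool 2: pool 3 was highest and pool 2 lowest. The 5 beta chain genes summed to 7966, 6912, 11249 and 9351 and the 6 alpha chain genes to 14567, 11887, 18462 and 15185, so pool 3 was highest in both sums. Globin copies are alike, so their counts are uncertain as well. Adult globins were not analysed here.

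The summed share of other red cell genes did not follow that of the globins. The list took 0.0577, 0.0633, 0.0570 and 0.0578%, highest in pool 2, and was led by the anion exchanger slc4a1a with 784, 795, 924 and 836 and the ankyrin ank1a with 730.5, 883, 636 and 643. Its members were mixed. Of the 15 with a mean of at least 10, 6 were highest and 6 lowest in pool 2, against 34.2% and 32.8% of all genes with such a mean. alas2, the first enzyme of heme synthesis in red cells, had only 1.97, 0.953, 0.940 and 0.987 and the iron transferase of heme synthesis fech only 16.8, 23.8, 5.64 and 8.88. alas2 was thus at 1 or 2 reads in every pool beside more than 10000 of hbae3, and the cause of this was not tested.

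Vessel and blood cell genes were of low level. The endothelial list took 0.0280, 0.0325, 0.0284 and 0.0280%, with kdrl, a receptor for vascular endothelial growth factor, at 223, 222, 201 and 179, and fli1, an endothelial transcription factor, at 579, 553, 668 and 708. The neutrophil list took 0.0118, 0.0125, 0.0136 and 0.0131%, with mpx, the granule myeloperoxidase, at 162, 185, 261 and 259. The macrophage list took 0.00381, 0.00528, 0.00425 and 0.00436%, with the actin-bundling protein lcp1 of all white cells at 73.9, 78.1, 103 and 96.7 and mpeg1.2, a pore-forming protein of macrophages, at 21.7, 33.3, 31.98 and 25.7. The antigen presentation genes cd74a and cd74b had at most 5.92 counts in any pool.

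The nervous system was read clearly. Pan-neuronal genes took 0.722, 0.716, 0.714 and 0.728%, a share with a CV of 0.892%, and 0.996% without pool 2. The RNA-binding proteins elavl3 and elavl4, which mark young neurons, had 8002, 8974, 8245 and 8285 and 4955, 5243, 4609 and 4805. Synaptic genes were lower: snap25a, a membrane fusion protein of synapses, had 1422, 1148, 1232 and 1255, and the synaptic vesicle sensor syt1a 1201, 1408, 1139.8 and 1189.

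Genes of transmitter use took 0.0300, 0.0319, 0.0267 and 0.0286%. The GABA enzymes gad2 and gad1b had 588, 656, 498 and 525 and 306, 309, 300.0 and 332, and the vesicle carrier of GABA and glycine, slc32a1, had 577, 493, 533 and 571. The acetylcholine carrier slc18a3a had 252, 228, 257 and 269. Dopamine genes were low, with th, the rate-limiting enzyme, at 12.8, 6.67, 13.2 and 9.87. Neural progenitor genes took 0.215, 0.248, 0.226 and 0.225%, led by fabp7a, a fatty acid binding protein of radial glia, with 2874, 3099, 3040.4 and 3259.9. notch3, a Notch receptor of progenitors, had 1689.7, 2932, 1758 and 1639.8 and was highest in pool 2. Glial genes took 0.184, 0.181, 0.183 and 0.187%, led by the glutamate transporter slc1a2b with 5709.9, 4828, 5440.5 and 5554, while the myelin genes mbpb and mbpa had 379.5, 349, 353 and 413 and 17.7, 21.9, 11.3 and 16.8.

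The eye stood out through its lens. The 44 lens crystallin genes, which encode the transparent proteins of the lens fiber, took 1.11, 0.997, 1.17 and 1.13% of reads, and crybb1 alone had 16638, 14015, 19152 and 16883. The beta and gamma N crystallins led, while 3 of the gamma M crystallins at the bottom of the list (crygm4, crygm2d12 and crygm2d20) had at most 2.96 counts in any pool. These gamma M genes are close copies. Of the other lens genes, the water channel mipb had 1388, 1404, 1726 and 1586 and the lens factor pitx3 242, 254, 268 and 243.

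Retinal genes took 0.123, 0.121, 0.129 and 0.136%. Transcription factors of photoreceptors and their precursors led, crx with 3026, 2748, 3119 and 3359.6 and otx5 with 1156, 1164, 1204 and 1452. rho, rod opsin, had 229, 181, 288 and 378, and the cone opsins were close to 0, with 10.8, 6.67, 9.40 and 15.8 for opn1sw1 and 0, 0, 0.940 and 2.96 for opn1sw2. pde6gb and pde6c, parts of the phosphodiesterase that light switches on, had 654, 536, 683 and 698 and 5.91, 9.53, 12.2 and 14.8. In 6 of the 7 photoreceptor genes put together after their values were seen, pool 4 was the highest pool, against 23.4% of all genes with a mean of at least 10. This tally is partly set by the choice of genes. With pool 2 left out, pool 1 was the lowest in 6 of the 7, against 34.6% of all genes. The sum of the 7 genes differed 1.16-fold between the highest and the lowest of the 3 pools.

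Skin genes were among the most read. The periderm and epidermis list took 2.25, 1.98, 2.201 and 2.22% in 37 genes. After krt4 came the keratins cyt1 with 24031, 19759, 23725 and 23032 and cyt1l with 16266, 14621, 16169 and 15245. krt5, a keratin of the basal layer, was low at 72.0, 72.4, 47.0 and 69.1, while col17a1a, which anchors basal cells, had 2045, 1897, 2102 and 1859. Ionocytes, the skin cells that take up salts, were read through the sodium pump atp1a1a.1 with 2955, 2867, 3033 and 3184 and the carbonic anhydrase ca2 with 715, 828, 733 and 745, genes that other tissues also use. The list took 0.0818, 0.0832, 0.0824 and 0.0862%.

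Mucous and hatching gland cells, which secrete mucus and the enzyme that softens the egg envelope, gave 0.0147, 0.0142, 0.0145 and 0.0125% and 0.0982, 0.0912, 0.0922 and 0.0964%. The mucin muc5.1 had 447, 492, 399.7 and 355. he1.1, the hatching enzyme, had 3479, 2951, 2654 and 3217, and xbp1, a factor of secretory cells in general, had 2846, 2733, 3224 and 3035. The larvae had been freed from the egg envelope before exposure began, and the hatching enzyme was still read in every pool.

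The fin fold list took 0.287, 0.280, 0.305 and 0.295%. Its leading genes encode the actinodins, structural proteins of the rays that stiffen the larval fin: and1 had 9290.4, 8341, 10240.5 and 9761, and2 6538, 5843, 7242 and 7113 and and3 3297, 2739, 3220.1 and 3263, while and4 had 97.6, 114, 126 and 111. Fibrillar and dermal collagens took 0.926, 0.870, 0.935 and 0.925%. col1a1b and col1a2, chains of type I collagen, had 26343, 20609, 27915 and 26694 and 18651, 15793, 19443 and 18524. The duplicate gene col1a1a had 1.97, 2.86, 0.940 and 2.96, at most 2.96 in any pool. What set the duplicates apart was not tested.

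Cartilage genes took 0.529, 0.510, 0.482 and 0.542%. col2a1b, a type II collagen gene, had 9184, 7991, 8680.3 and 9864, and its duplicate col2a1a had 186, 181, 179.6 and 186. What set these duplicates apart was not tested. col9a1b, col9a2 and matn4, which join the fibrils into a network, had 3085, 2457, 2588 and 3646, 3684, 2939.9, 3182 and 4009 and 3474, 3164, 3207 and 3485. A set of 5 collagen II and IX genes, put together after the values were seen because pool 4 was highest in each, summed to 18984, 15886, 16828 and 20743. Bone genes took 0.116, 0.0971, 0.109 and 0.112%, most of it from sparc, a matrix protein of many tissues. The osteoblast factor sp7 had 35.5, 41.0, 36.7 and 30.6, and the late bone protein genes spp1 and bglap had 4.93, 5.72, 7.52 and 13.8 and 1.97, 3.81, 0.940 and 2.96.

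Notochord and floor plate genes, for the embryonic axis rod and the ventral midline of the neural tube, took 0.118, 0.114, 0.104 and 0.123%. The list was led by col9a1b, shared with cartilage, and cmn (calymmin), of the notochord sheath, with 2214, 1901, 2037 and 2309. The notochord factor tbxta had 188, 168, 186 and 206 and the earlier factor noto 1.97, 1.91, 5.64 and 1.97.

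Neural crest genes took 0.0858, 0.0797, 0.0859 and 0.0857%, led by tfap2a, also a skin factor, with 2495, 2192, 2516 and 2704. sox10, a factor of crest, glia and pigment precursors, had 533, 451, 513 and 531. Genes listed for all 3 pigment cell types were read, and reads of whole larvae cannot be assigned to a single cell type. Melanophore genes took 0.136, 0.133, 0.146 and 0.130%, with the melanin enzymes tyrp1b at 3237, 2773, 3343 and 2995 and dct at 1990.4, 1788, 2144 and 1894, and the melanosome fiber protein pmela at 2555, 2408, 2853 and 2461.

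Xanthophore genes, for yellow pigment, took 0.0971, 0.0998, 0.0805 and 0.0915%, led by aox5 with 4709, 4332, 3592 and 4464 and gch2, the first enzyme of pteridine synthesis, with 1557, 1530.0, 1547 and 1521. gch2 was also among the 15 least variable genes with a mean of at least 1000, with a CV of 1.04%, and 1.18% without pool 2. Iridophore genes, for reflecting purine crystals, took 0.0502, 0.0466, 0.0483 and 0.0495%, led by the purine enzymes atic with 1619.7, 1180.3, 1575 and 1528 and impdh1b with 998, 940.3, 1129 and 1144, which dividing cells also use. pnp4a, closer to iridophores, had 276, 205, 252 and 268.

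Yolk lipid export took 1.66, 1.398, 1.65 and 1.62% of reads. Besides apoa1b and apobb.1, apoa2 had 16196, 12645, 15936 and 15481, apoc1 had 12605, 10412, 9750.5 and 11939, apoa1a had 12563, 8743, 11317 and 11552 and apoeb had 6305, 5102, 7716 and 6762. Pool 2 was lowest in apoa2, apoa1a and apoeb, and pool 3 in apoc1. mttp, the protein that loads lipid onto apolipoprotein B, had only 55.2, 83.8, 73.4 and 56.2, and the hormone carrier ttr had 1.97, 2.86, 2.82 and 1.97.

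Of 18 listed vitellogenin and egg genes, 9 were in the table, with a median level of 2.68 counts. The list of vitellogenin and egg genes took about 0.0005% in each pool. vtg2, a yolk precursor that the mother's liver makes, had 1.97, 1.91, 2.82 and 0.987, and the only member with a mean of at least 10 was the egg envelope gene zp3b with 13.8, 15.2, 16.9 and 15.8. Germ cell genes took 0.00187, 0.00200, 0.00161 and 0.00213%, with ddx4 (vasa), the common marker of primordial germ cells, at 10.8, 12.4, 15.05 and 17.8 and dazl at 12.8, 12.4, 9.40 and 8.88.

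Liver genes took 0.354, 0.323, 0.323 and 0.358%. Secreted plasma proteins led: fetub, a protease inhibitor, had 9038, 7034, 7885 and 9880.4, the iron carrier tfa had 4163, 3812, 4027 and 3979, the complement protein c3a.1 had 2039, 2328, 1839 and 2322 and the copper carrier cp had 1774, 1368, 1552 and 1565. The fibrinogen chains fga and fgb had 1238, 1140.3, 1345 and 1273 and 1423, 1069.8, 1281 and 1317. fabp10a, the fatty acid binding protein often used as a liver marker, was low at 21.7, 15.2, 20.7 and 16.8, and the liver factor hnf4a had 4.93, 4.76, 4.70 and 2.96. The yolk syncytial layer also makes many plasma proteins, so these reads cannot be assigned to the liver alone.

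Digestive genes were scarce. The exocrine pancreas list, for the acinar enzymes, took 0.00279, 0.00342, 0.00343 and 0.00386%: the acinar factor ptf1a, also used by neurons, had 117, 131, 138 and 143, the carboxypeptidase cpa5 had 34.5, 41.9, 48.0 and 52.3, and prss1 (trypsin) had 10.8, 19.1, 22.6 and 33.5, while the elastases cela1.1 and cela1.2 had at most 3.81 counts. The intestinal list took 0.0271, 0.0220, 0.0246 and 0.0227%, most of it from fabp1b.1, a lipid carrier also of the yolk syncytial layer, with 1403, 1169, 1383 and 1196. vil1 (villin), of the gut brush border, had 43.4, 47.6, 38.6 and 41.4, and the later gut genes lct and fabp6 had at most 4.70 counts.

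Hormone genes were already present at low level. In the endocrine pancreas list, sst1.1 (somatostatin) had 82.8, 79.1, 79.9 and 96.7 and gcga (glucagon) had 64.1, 70.5, 84.6 and 69.1, and insb, the second insulin gene, had 0.986, 1.91, 1.88 and 1.97. The leading members of that list, neurod1 and isl1a, are neuronal factors as well. prl (prolactin) had 28.6, 32.4, 26.3 and 28.6, pomca, the precursor of corticotropin, had 29.6, 35.2, 36.7 and 21.7, gh1 (growth hormone) had 3.94, 7.62, 10.3 and 9.87 and tg (thyroglobulin) had 31.5, 25.7, 39.5 and 33.5.

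Kidney genes took 0.0394, 0.0425, 0.0374 and 0.0375%, with cdh17, a cadherin of the pronephric tubule, at 317, 320.1, 298 and 313 and slc12a3, the salt carrier of its distal part, at 84.8, 89.6, 77.1 and 105. Ear and lateral line genes took 0.132, 0.116, 0.125 and 0.130%, most of it from sparc. stm (starmaker), which shapes the ear stones, had 1211, 1103, 1097 and 1224, otomp (otolith matrix protein) had 86.8, 120.0, 98.7 and 109, and otofa (otoferlin), of hair cell synapses, had 81.8, 131, 95.9 and 78.9. Another listed member, s100t, of hair cells, had 117, 54.3, 59.25 and 130.2, with pools 1 and 4 above the other pair.

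Hox genes, which set position along the body axis, were read in every pool: 36 genes took 0.0887, 0.0867, 0.0881 and 0.0866%, a share with a CV of 1.198%, or 1.25% without pool 2, and 35 of them had a mean of at least 10. The third paralog group, of the hindbrain and pharyngeal arches, had the most reads, 3277, 3095, 3395 and 3263 summed over 4 genes, led by hoxb3a with 1427, 1354, 1509 and 1467. The ninth group, of the trunk, followed with 983, 952, 1034 and 968. The thirteenth group, of the tail tip and fins, had 263, 237, 262 and 235 over 6 genes. The fourth, sixth, seventh and eighth groups had only 1 gene each among the 36, and the fifth had none. The sums therefore do not rank positions along the body axis.

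The machinery common to all cells was read at high and uneven levels. The 13 mitochondrially encoded protein genes took 7.65, 7.36, 7.64 and 7.79%, between ATP8 with 923, 897, 823 and 1108 and COX1. Their 95 nuclear partners in the respiratory chain took 1.08, 0.986, 1.08 and 1.09%, led by atp5f1b, the catalytic subunit of ATP synthase, with 9759.7, 8403, 9921 and 9549.9. Although these proteins work in fixed proportion, 18 of the 95 had a mean under 100, and ndufa8 and uqcrq had 0.986, 3.81, 0.940 and 2.96 and 3.94, 1.91, 1.88 and 3.95. The 51 proteasome genes took 0.337, 0.333, 0.373 and 0.362%. With pool 2 left out, pool 1 was the lowest in 37 of the 49 with a mean of at least 10 and pool 3 the highest in 30, against 34.6% and 34.2% of all genes with such a mean.

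Ribosomal proteins are needed in equal number in each ribosome, and the 77 genes of the cytosolic ribosome took 5.69, 5.06, 5.67 and 5.57% of reads. rplp0 led with 17675, 15784, 18405 and 18157, the median gene had a mean of 3967, and 67 of the 77 had a mean of at least 1000. A break followed below 100. Only 6 genes lay there, and the lowest were rpl12 with 4.93, 4.76, 6.58 and 11.8 and rps15 with 4.93, 3.81, 12.2 and 8.88. rpl13a, a common reference gene in quantitative PCR, had 26.6, 36.2, 32.9 and 25.7, and rps12 had 49.3, 36.2, 54.5 and 56.2. The duplicates rps8a and rps8b had means of 12669.6 ± 690.1 and 17.0 ± 2.68 (SD, n = 4). Every one of the low genes was low in all 4 pools, and what held their counts down was not tested.

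**Figure D3:**
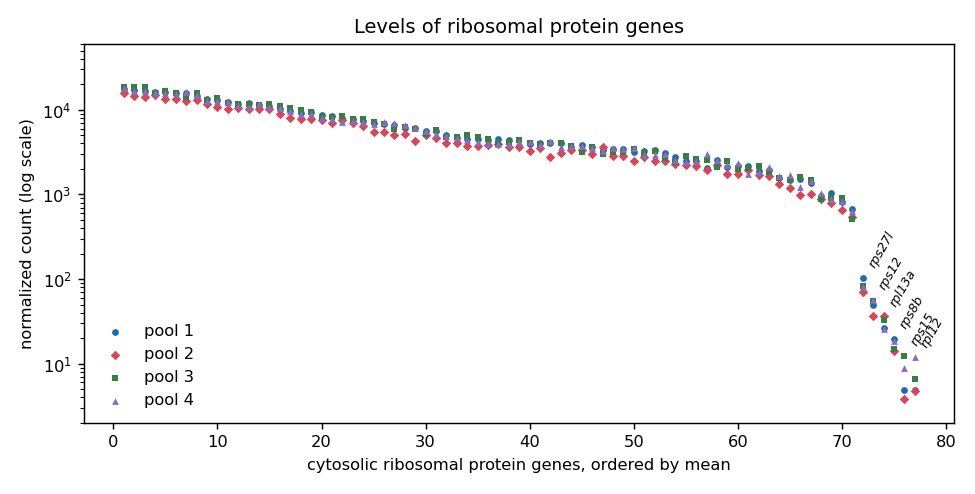
Normalized counts (log scale) of the 77 cytosolic ribosomal protein genes, ordered by mean, with 1 symbol per control pool. Of the 77, 71 lie at 100 or above, and the 6 named genes at the right lie below 100 in mean, down to 7.03 for rpl12.

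Genes of the cell cycle took 0.342, 0.358, 0.354 and 0.355%. hmgb2b and hmgb2a, chromatin proteins of dividing cells, had 3919, 3679, 3861 and 4212 and 3995, 3522, 3482 and 4075, and mki67 had 2527, 3512, 2289 and 2468. Among genes of DNA replication, pcna, the sliding clamp, had 1661, 1731, 2155 and 2013, and rrm1, which makes deoxynucleotides, had 1646, 1703, 2187 and 1939.8. The 6 genes of the replicative helicase, mcm2 to mcm7, summed to 4956, 4625, 5812 and 5307, and all 6 were highest in pool 3. That grouping was made after the values were seen. Of the whole list of 33 genes, these 6 included, pool 3 was the highest in 20, against 23.5% of all genes with a mean of at least 10, and of pools 1, 3 and 4 in 22, against 34.2%. Of the mitotic genes of the list, top2a had 1765, 1828, 1631 and 1702 and aurka 309, 294, 311 and 313.

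Genes of the response to foreign compounds give the unexposed level of the pathway that the study was about. The aryl hydrocarbon receptor (AHR) binds planar aromatic compounds, pairs with ARNT and switches on genes such as cyp1a, a cytochrome P450 gene of family 1. The main larval receptor gene ahr2 had 591, 877, 561 and 623, highest in pool 2, while ahr1b had 89.7, 144, 73.4 and 57.2 and ahr1a 4.93, 5.72, 5.64 and 2.96. The partner genes arnt2 and arnt had 202, 451, 159 and 126 and 28.6, 61.0, 30.1 and 22.7, and in both pool 2 lay more than 2 times above each other pool. The chaperone aip, which holds the receptor in the cytoplasm, had 385, 337, 383 and 473.

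Of the cytochrome P450 genes of family 1, cyp1a had 36.5, 20.01, 25.4 and 22.7, cyp1c1 had 92.7, 61.0, 72.4 and 66.1, cyp1c2 had 26.6, 27.6, 20.7 and 25.7 and cyp1d1 had 123.2, 152, 131 and 111. These levels were low but above 0 in every pool, and pool 1 was the highest for cyp1a and cyp1c1. The receptor repressors ahrra and ahrrb had 13.8, 11.4, 10.3 and 10.9 and 19.7, 13.3, 7.52 and 7.89, and tiparp, another feedback gene, had 307, 223, 218 and 200.3. wfikkn1, a secreted protein with protease inhibitor domains, had 5.91, 3.81, 6.58 and 4.93, foxq1a, a transcription factor, 52.2, 50.5, 76.2 and 52.3, and fgf7, a growth factor, 17.7, 20.01, 14.1 and 8.88. Conjugating and redox genes were higher: gstp1.2, a glutathione transferase, had 2261, 2121, 2677 and 2145, nqo1, a quinone reductase, 385, 308, 369 and 425 and sult6b1, a sulfotransferase, 245, 189.6, 226 and 228.

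Other genes that the study names had the following baseline levels. per2, a clock gene that light induces, had 68.02, 78.1, 71.5 and 77.0 and a CV of 6.43%, and 6.25% without pool 2. gap43, of growing axons, had 1162, 946, 859 and 1143, cyb5a, an electron donor of the endoplasmic reticulum, had 285.9, 317, 289 and 360.1, and ccn2b, a matrix signaling protein, had 27.6, 23.8, 26.3 and 24.7. cdc37, which hands kinases to Hsp90, had 869, 798, 834 and 919, and foxf2a, a mesenchyme factor, 213, 180.1, 186 and 192. At the low end, tmem54a had 8.87, 0, 0 and 1.97 and sik2a 1.97, 1.91, 9.40 and 1.97. Both were at 2 reads or fewer in most control pools.

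Clock genes took 0.0618, 0.0686, 0.0660 and 0.0668% as a list. per1b had 552, 722, 654 and 611, the repressors nr1d2b and ciarta had 555, 571, 689 and 617 and 595, 514, 649 and 638, and bmal1a, of the activating arm, had 166, 151, 186 and 188. per3 had 22.7, 109.6, 48.9 and 48.3, with pool 2 more than 2 times above the rest. Light-induced cry1a had 83.8, 89.6, 135 and 143, so pools 3 and 4 were higher than pools 1 and 2. With pool 2 left out, pool 1 was the lowest in 18 of the 32 clock genes with a mean of at least 10, against 34.6% of all genes with such a mean.

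Heat shock genes took 0.506, 0.491, 0.505 and 0.506%, most of it from hsp90ab1, and glycolysis and hypoxia genes took 0.844, 0.759, 0.797 and 0.806%, led by gapdh with 14827, 12898, 14346 and 14090.5 and the aldolase aldoab with 9099, 7757, 8352 and 8232. serpinh1b, the collagen chaperone, had 1115, 920.3, 786 and 752, highest in pool 1. hif1ab, the oxygen-regulated factor, had 3547, 3183, 3646 and 3548.

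The spread between the 4 pools was described by the coefficient of variation (CV, the SD over the mean) of normalized counts. Over the 17918 genes with a mean of at least 10, the median CV was 13.2%, and 10.005% without pool 2. Counting error alone gives a CV that falls as reads rise. After it was subtracted, the median CV left between pools was 7.90% with all 4 pools and 2.99% without pool 2. For 28.3% of the genes the 4 pools differed by no more than counting error. The highest pool was at least 2 times the lowest in 2329 genes, 13% of those with a mean of at least 10, and in 748 of 17749 genes, 4.21%, without pool 2. A span over fewer pools cannot be larger, so part of this drop comes from leaving out any pool. The count was 1932, 1887 and 1817 with pool 1, 3 or 4 left out instead.

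By level, the median CV was 49.6% for genes with a mean of 1 to 10, 19.9% from 10 to 100, 9.63% from 100 to 1000, 7.74% from 1000 to 10000 and 8.28% at 10000 and over. Counting error alone would give 48.4, 16.3, 6.35, 2.39 and 0.760%. The total spread of low genes was thus nearer to that of counting than the total spread of genes above 1000. After counting error was subtracted, the median CV left was 8.84, 10.038, 7.18, 7.41 and 8.24% in the same order of levels. With all 4 pools, the spread left was therefore not smaller in low genes. Leaving out pool 2 made these medians 0, 0, 3.40, 3.88 and 3.57%. Without pool 2 the median CV was 4.52% from 1000 to 10000 and 3.67% at 10000 and over, 1.71 and 2.26 times smaller than with it. The plot of CV against level shows both curves above the counting line at its right end.

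**Figure D4:**
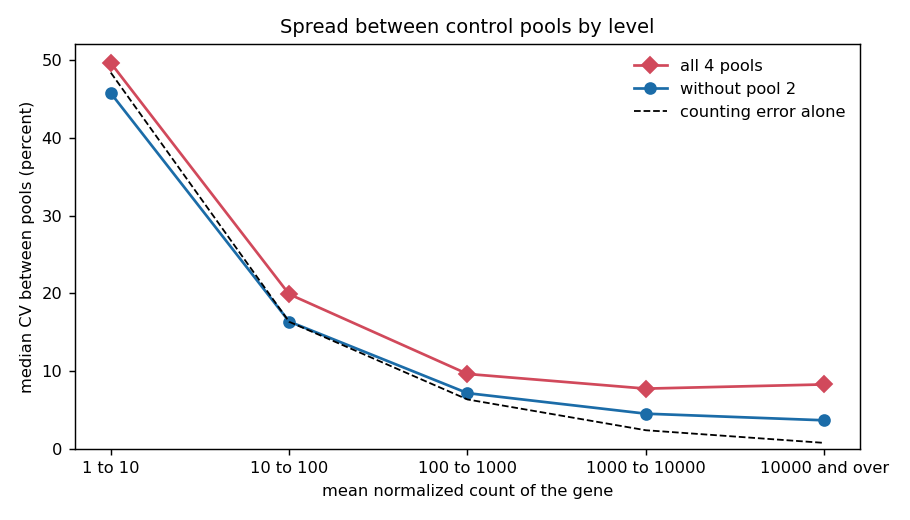
Median CV between pools (percent) of genes grouped by mean normalized count, with all 4 control pools (red), without pool 2 (blue) and as counting error alone would give it (dashed). At a mean of 10000 and over the curves end at 8.28% and 3.67%, and counting error at 0.760%.

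Pool 2 differed in a way that went with the level of a gene. The values here are normalized counts, whose total over all genes was lowest in pool 2. A gene with an equal share of reads in all pools thus has a lower normalized count there. Its median log2 deviation from the mean of the other pools was 0.20 in the first of 5 equal groups of genes ordered by reads, that with the fewest, and 0.09, 0.02, -0.03 and -0.10 in the next groups. In the group with the most reads it was the lowest pool for 54.5% of genes and the highest for 22.6%. In the group with the fewest it was the highest for 41.9% and the lowest for 18.33%. The other pools had medians between -0.10 and 0.05 in all 5 groups, and these include pool 2 in the mean they were set against.

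By list, 68 of the 75 ribosomal protein genes with a mean of at least 10 were lowest in pool 2. So were 74 of the 89 nuclear respiratory chain genes and 23 of the 37 skin genes. Of all genes with such a mean, 32.8% were lowest and 34.2% highest in pool 2, and in the group with the most reads 54.5% were lowest. The skin genes lay near that last share. Other lists did not go by their level. Of the 35 hox genes, with a median level of 98.9, 18 were lowest and 8 highest in pool 2, and of the 28 retinal genes 15 were lowest and 2 highest. Of the 18 fibrillar and dermal collagen genes, with a median level of 1585, 8 were lowest and 8 highest. None of the 75 ribosomal protein genes reached a 2-fold span between pools, and of all genes with a mean of 1000 to 10000 only 6 of 1104 did. Of the 35 immediate early genes, which respond within minutes to stimulation, 7 did with all 4 pools, against 13% of all genes, and 4 without pool 2, against 4.21%. Of the 27 AHR and biotransformation genes, 5 did with all 4 pools and 1 without pool 2, the second count being close to the 4.21% of all genes.

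The genes with the largest spread were those high in pool 2. Among the 8953 genes with a mean of at least 100, 107 had a CV of at least 50% after subtraction of counting error, and 106 of the 107 were highest in pool 2. Leading them was trrap, a scaffold of histone acetyltransferase complexes, with 51.3, 397, 50.8 and 41.4. Without pool 2, its counts differed by no more than counting error and averaged 47.8. The filter at 100 uses the mean of all 4 pools, so a gene such as trrap passed it only through pool 2. The tally of genes highest in pool 2 is therefore partly set by the choice of genes. Next came LOC100330629 with 189, 863, 225 and 85.8, the repressor hic2 with 66.1, 277, 49.8 and 52.3, the cullin cul9 with 70.0, 297, 68.7 and 46.4 and col4a1, a basement membrane collagen, with 67.0, 278, 54.5 and 56.2.

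Among the 25 most variable genes were l1camb, an axon adhesion protein, with 221, 865, 205 and 174, slit1a, a repellent of axons, with 125, 512, 103 and 128 and sema3gb, a semaphorin, with 88.7, 277, 71.5 and 55.3. Functions are named here after the genes were seen, and their share among all genes was not counted. Chromatin proteins of the 25 included mbd6 with 115, 511, 165 and 66.1, jarid2a with 111, 372, 120.4 and 85.8 and hmga2 with 146, 492, 135 and 102, and the peroxidase pxdn, which crosslinks collagen IV, had 55.2, 296, 69.6 and 72.0. The muscle protein synpo2a had the most reads of the 25, 277, 1119, 265 and 231. All 25 were highest in pool 2, whose values also count in the mean and the CV that chose them.

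With pool 2 left out, an alternative chosen after seeing the data, only 2 of the 8848 genes had a CV of at least 50% after subtraction. These were ces3, a carboxylesterase, with 73.0, 109, 60.2 and 208, and fosab, the immediate early gene c-fos, with 137, 405, 393 and 130.2. Only 2 of the 25 most variable genes were the same with and without pool 2. Several immediate early genes shared the order of fosab, with pools 2 and 3 above pools 1 and 4: junbb had 180.4, 302, 322 and 182, fosb 30.6, 75.3, 66.8 and 33.5 and egr1 174, 214, 255 and 163. The summed count of fosab, junba and junbb, a sum chosen after seeing the data, was 403, 815, 862 and 407. Of the 35 immediate early genes with a mean of at least 10, pool 3 was the highest of pools 1, 3 and 4 in 24, against 34.2% of all genes, and pool 4 the lowest in 18, against 32.6%. The neuronal early gene npas4a had 20.7, 84.8, 23.5 and 22.7, high in pool 2 alone.

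A second group had pools 1 and 4 above pools 2 and 3. ctslb.4 and zgc:174855, genes of the cathepsin L family of lysosomal proteases by symbol or synonym, had 413, 249.6, 181 and 369 and 354, 195, 136 and 291, and si:dkey-239j18.3, which lies between them in the GRCz12tu annotation, had 342, 166, 151 and 370.0. The counts of such copies are uncertain. wu:fa03e10 had 271, 193, 117 and 245, close to the same order. In si:dkey-286j15.1, pools 1 and 3 lay above the others with 343, 134, 403 and 190.4.

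Other genes were high in 1 pool. cdh26.2, a cadherin, had 1695, 1123, 886 and 808, p3h4, a collagen-modifying protein, had 916, 619, 482 and 489, f7i, of the coagulation factor VII family, had 153, 87.6, 80.9 and 68.1 and anxa1b, an annexin, had 312, 146, 168 and 171, each highest in pool 1. ghrh, growth hormone releasing hormone, had 152, 332, 291 and 296, lowest in pool 1. The large mitochondrial ribosomal RNA mt-rnr2 had 17037, 15066, 24012 and 23661, higher in pools 3 and 4. The plot of the most variable genes shows the shift of pool 2 on its left side and mixed orders of pools on its right.

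**Figure D5:**
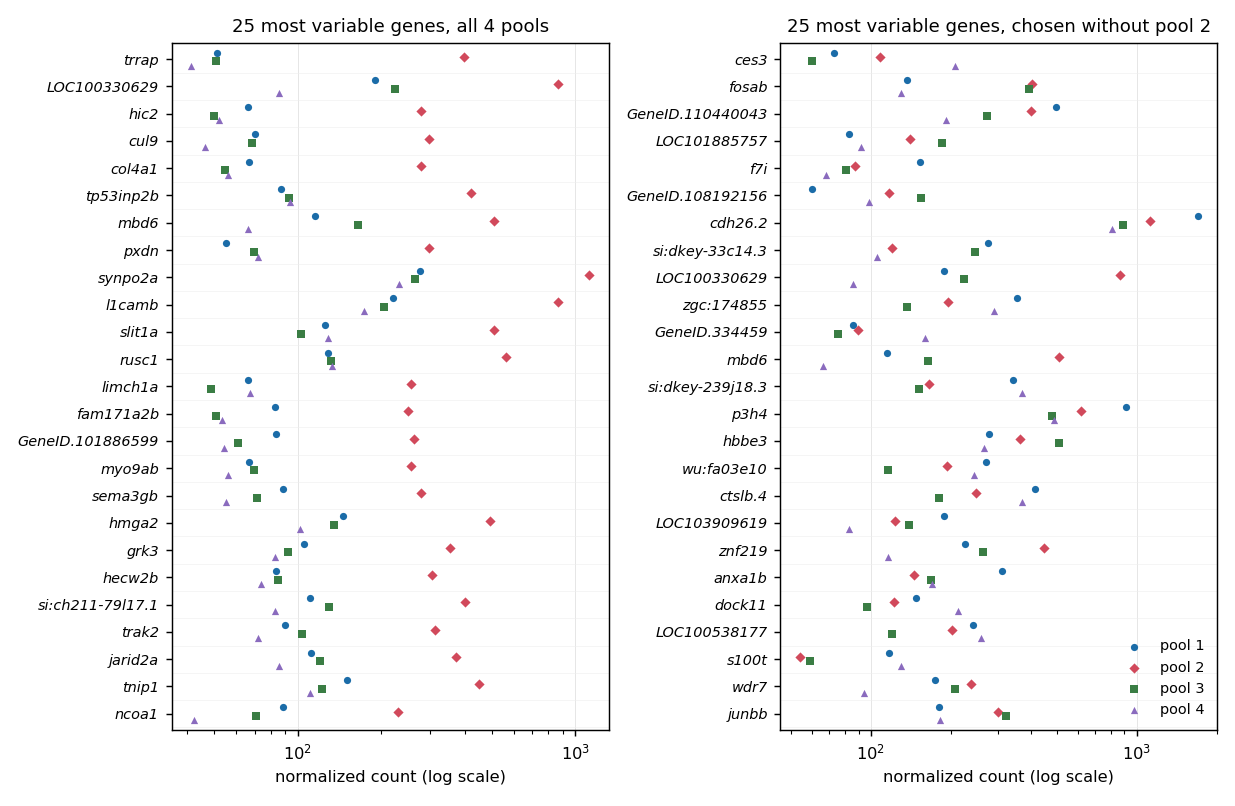
Normalized counts (log scale) of the 25 genes with the largest CV after subtraction of counting error, over all 4 control pools (left) and over pools 1, 3 and 4 (right, with pool 2 still drawn), 1 symbol per pool. On the left pool 2 (red diamonds) is highest in all 25 genes, and on the right no pool is.

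At the other end were genes whose pools were nearly equal. Among genes with a mean of at least 1000, the smallest CV was that of cdc34b, a ubiquitin-conjugating enzyme, with 1062, 1054, 1064 and 1055 and a CV of 0.471%, and 0.442% without pool 2. lmnb1, of the nuclear lamina, followed with 1439, 1460.4, 1447 and 1448 and 0.601%, or 0.345% without pool 2. col4a5, another basement membrane collagen, had 3899.9, 3863, 3939 and 3907 and 0.795%, or 0.525% without pool 2. In 14 of the 15 least variable genes the pools differed by no more than counting error, pool 2 included. These genes were chosen for their small CV, so this follows largely from the choice. Signaling and nuclear genes were among them, such as the receptor fgfr2, the corepressor tle3b, the elongation factor of transcription supt6h, the ribosomal gene factor ubtf and fubp1, with CVs between 0.927 and 1.65%, and between 1.02 and 1.68% without pool 2. With 4 pools, the order of such small CVs is itself uncertain.

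Of genes used as references in quantitative PCR, 20 were in the table, with a median CV of 8.62%, and 4.22% without pool 2. CV falls with level, and the median level of these genes was 1550.3. All genes with a mean of 1000 to 10000 had a median CV of 7.74%, and 4.52% without pool 2. With all 4 pools, the smallest CVs of the references were those of rnf7 with 227, 226, 233 and 218 and a CV of 2.75%, sdha with 1605, 1560.5, 1697 and 1629 and 3.53%, and hmbsa with 134, 147, 137 and 141 and 3.88%. Without pool 2 these were 3.37, 2.92 and 2.56%. Over the 4 pools, counting error alone gives 6.54% for rnf7, 2.44% for sdha and 8.31% for hmbsa. The CVs of rnf7 and hmbsa thus lay below counting error and do not show that these genes are steadier than others. Of the most common references, eef1a1l1 had a CV of 8.98%, actb2 of 7.76%, actb1 of 10.18%, gapdh of 5.84%, rpl8 of 9.16% and rps18 of 9.43%. Without pool 2 these were 3.28, 4.70, 7.27, 2.59, 3.77 and 10.1%, so the order of the references changed and gapdh and eef1a1l1 were below rnf7.

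The remaining references lay between 5.39% for ube2a and 11.6% for gapdhs, apart from the low genes, and these were 5.101% and 4.66% without pool 2. In that range were ppiaa with 9.81%, tuba1a with 7.25%, tuba1b with 11.1%, pgk1 with 7.10%, lsm12b with 10.23% and tbp with 8.26%. Without pool 2 they had 3.22, 7.30, 5.57, 3.63, 3.59 and 9.36%. The low genes rpl13a and b2m had 16.7% and 31.6%, of which counting error alone gives 17.8% and 21.3%. At 23.7, 11.4, 23.5 and 26.6 counts, b2m, the light chain of the molecules that present antigen, was the lowest of the 20 listed genes and the only one with a 2-fold span between pools, which it did not have without pool 2.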

How the data were processed

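RNA from the 4 control pools was sequenced with the other pools of the study, and 1 table of all 32 pools was used. The authors aligned reads with STAR to GRCz11, counted them per RefSeq gene with HTSeq at a minimum alignment quality of 10 and otherwise default settings, which count by strand and leave out reads that match several places or several genes, dropped each gene that had no read in 8 or more pools, and then used DESeq2 to normalize. Tool versions, and whether the library kit kept strand, are not given in the sources used here. The deposited values are log2-like, variance-stabilized values made by the authors. Their closed form was reversed, which gave reads divided by 1 size factor per pool, and 100% of the control values came out within 0.01 of a whole read. The removal rule used all pools, so genes read only in few pools are not analysed here. The size factors are relative to all 32 pools.

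Groups came from the sample labels. There is 1 group, so no test between groups was made, and values are given per pool or as mean ± SD. Counting error was taken as Poisson in reads and subtracted from the variance. Fold spans used a pseudocount of 0.5 and a mean of at least 10. The most variable genes needed a mean of at least 100 and the least variable a mean of at least 1000. Depth, 8045230 to 8656870 reads per pool, limits genes under about 10 reads to counting error, and intervals and floors cover counting error only. Of 22686 gene numbers, 21030 were matched to names in a table of GRCz12tu, which was used for names and gene order only. Named genes were the 30 most read, the 5 most read and the defining markers of each list, the 25 most and the 15 least variable, the 5 farthest from the rest in each pool, the reference genes and genes the study names. Other genes were named after their values were seen. A few listed genes are not reported here. The members and lists were chosen with earlier results of these data known. Alternatives were other scalings, filters, pseudocounts and leaving out each pool. Scripts used Python 3.11.15, NumPy 2.4.6, SciPy 1.17.1, pandas 2.3.3 and matplotlib 3.10.9, and were checked on simulated data. Pools far from the rest of their group were marked by Dixon's criterion.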

Additional observations from a re-analysis of the deposited data

Results flagged for a closer look

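In 36 of 289 sets of 4 values, the highest or the lowest pool lay far from the other 3 by Dixon's criterion for 4 samples, which chance alone meets in about 1 in 20 sets. Pool 2 was the distant pool in 27 of the 36, pool 1 in 3, pool 3 in 4 and pool 4 in 2. The genes examined include those chosen for their spread, so neither the share flagged nor the tally by pool holds for genes at large: the 25 most variable genes were all highest in pool 2.

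Pool 2 was low in the share of the top 100 genes (32.4%) and of the top 1000 genes (59.7%), and in the shares of 6 lists. These were neural crest (0.0797%), periderm and epidermis (1.98%), fibrillar and dermal collagen (0.870%), yolk lipoprotein export (1.398%), heat shock (0.491%) and the nuclear respiratory chain (0.986%). It was high in the shares of red cell genes (0.0633%) and endothelium (0.0325%). Of single genes, krt4 (77585 normalized counts) and and3 (2739) were low in pool 2.

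Genes high in pool 2 included l1camb (865), slit1a (512), sema3gb (277), the Notch receptor notch3 (2932) and the early response gene npas4a (84.8). Nuclear proteins with a high value in pool 2 were trrap (397), hmga2 (492), jarid2a (372), hic2 (277) and the heart factor nkx2.5 (13.3, less than 3 reads above the next pool and within counting error). Others were cul9 (297), the matrix genes col4a1 (278) and pxdn (296), and the muscle genes synpo2a (1119) and smyhc1 (55.3).

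In pool 1, anxa1b was high (312), as was alas2 (1.97), while insb was low (0.986). In pool 3, foxq1a (76.2), noto (5.64) and sik2a (9.40) were high and krt5 was low (47.0). In pool 4, otx5 was high (1452) and hnf4a low (2.96). For alas2, insb, noto and hnf4a these are values of under 10 reads, where a gap of a few reads is enough. The value of sik2a, 9.40 normalized counts beside 1.91 to 1.97 in the other pools, is also low.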

How the results depend on the processing

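Of 37 alternatives to the values over all genes, 30 stayed within the spread of the pools or within 1.5 times the count, and 7 did not. The number of genes whose highest pool was at least 2 times the lowest, 2329, depended most on the setting. It was 748 to 1932 with 1 pool left out, the lowest being without pool 2, 5940 with no minimum mean, 278 at a minimum mean of 100, 1121 with a pseudocount of 10, and 207 where a difference of at least 1 on the deposited log2-like scale was asked for. The deposited scale shrinks differences of low genes by construction. The median CV after subtraction of counting error, 7.90%, was 2.99% to 8.28% with 1 pool left out, again lowest without pool 2. Pool 2 was the highest or lowest pool for 12010 genes, or 67.0%, and for 6454 at a minimum mean of 100, or 72.1% of the fewer genes that enter. The 212 list shares with 1 pool left out, over 53 lists, moved by less than the SD of the pools, which holds by construction for 4 values and says nothing of stability. An order of genes per kilobase of coding sequence was not run, because no coding lengths were used here. No paired analysis was possible because there is a single group and no test.

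Counts of list members by pool and the most variable genes without pool 2 were chosen after seeing the data. Depth limits genes under about 10 reads, for which counting error is close to the whole spread. Values are relative within a pool, so they give no number of molecules per larva. Reads that match near-identical copies or overlapping genes are left out by the counting, so the values of such genes are uncertain.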
